A study of Mus musculus with 3 samples.

Results

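The vomeronasal type 2 receptor genes (Vmn2r genes) are a family of pheromone receptors, examined here for CUT&RUN peaks made with a Foxp3 antibody in mouse macrophages. They were taken by symbol (Vmn2r followed by a number) from the protein-coding genes of chromosomes 1 to 19 and X in the RefSeq table of GRCm38.p6, the assembly of mm10. The rule gave 123 of 21627 genes. Vmn2r122 (positions 3536 to 11935 of an entry for chromosome 4) lay before position 3050054, the first peak of either list on that chromosome. Its position was read as one of a separate scaffold, and 122 members were left among 21519 genes placed in the same way. Vmn2r29 was set apart from the start by the rule and is described first.

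In the 3 samples of the series, bone marrow-derived macrophages (BMDMs), grown from marrow in medium conditioned with M-CSF, were fixed in 0.1% formaldehyde for 2 min. There were 2 Foxp3 libraries (replicates 1 and 2), and 1 library was made with an isotype IgG, whose values were not used here. Brain-derived damage-associated molecular patterns (DAMPs) appear in the title of the study, but no label ties them to a library. Strain, genotype and age were not given in the sources used here, nor whether the replicates were separate cultures, so the spread between them may be technical. Replicate 1 gave 556535 peaks from 33294105 fragments and replicate 2 gave 95135 from 34898401. Peak lists hold no expression values, so the cell type could not be checked at the RNA level. An end site is used below for any peak that reaches into the 1 kb on either side of an annotated gene end. Of 8 macrophage marker genes 5 had an end site in both replicates (Spi1, Csf1r, Mertk, Fcgr1 and Cd68), and Adgre1 had none in either. Of 5 T cell markers 2 did, Cd4 and Cd8a, and of 4 vomeronasal neuron markers 3 did. As 62.5% of all placed protein-coding genes had an end site in both replicates, these counts do not speak to the cell type. The annotation used gives gene ends and starts but not exons, so peaks are placed by gene body and end.

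Vmn2r receptors belong to class C of the G protein-coupled receptors and bind peptide and protein pheromones with a large extracellular domain. They act in sensory neurons of the basal layer of the vomeronasal organ, where signalling runs through the G protein subunit encoded by Gnao1 and the channel encoded by Trpc2. Each such neuron uses few of the genes, and members of the Vmn2r1 to Vmn2r7 group are expressed together with the others.

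RefSeq windows of 300 bases, from 250 before to 50 after an annotated start, were matched for 116 of the 122 members (117 windows), and 5 are shown because the results turn on them. Vmn2r29 has 2 annotated starts. Its outer start, at position 7278289, is the one with peaks in both replicates. Capitals mark the CG dinucleotides in this window, chr7:7278240-7278539 on the minus strand of mm10, of which there are 23.
Vmn2r29 outer start: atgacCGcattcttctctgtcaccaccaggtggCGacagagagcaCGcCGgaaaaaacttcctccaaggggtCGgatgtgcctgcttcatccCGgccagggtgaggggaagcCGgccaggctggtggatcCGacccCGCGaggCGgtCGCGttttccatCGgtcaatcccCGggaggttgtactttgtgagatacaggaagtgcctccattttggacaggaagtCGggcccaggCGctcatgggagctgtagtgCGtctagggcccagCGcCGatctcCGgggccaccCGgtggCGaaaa
The inner start of Vmn2r29 (chr7:7247279-7247578, minus strand) lies 30961 bp further along the gene, and its window is shown with that of Vmn2r35 (chr7:7819818-7820117, minus strand), its closest relative among the members. Neither start had a peak within 1 kb in either replicate. In these and the next windows, capitals mark TGAGTCA, the reverse complement of the AP-1 word TGACTCA.
Vmn2r29 inner start: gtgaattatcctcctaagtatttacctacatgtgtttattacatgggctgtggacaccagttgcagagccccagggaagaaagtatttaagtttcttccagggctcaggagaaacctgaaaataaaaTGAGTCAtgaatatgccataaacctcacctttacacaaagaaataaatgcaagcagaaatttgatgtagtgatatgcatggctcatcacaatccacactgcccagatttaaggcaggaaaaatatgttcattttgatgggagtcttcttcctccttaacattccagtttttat
Vmn2r35: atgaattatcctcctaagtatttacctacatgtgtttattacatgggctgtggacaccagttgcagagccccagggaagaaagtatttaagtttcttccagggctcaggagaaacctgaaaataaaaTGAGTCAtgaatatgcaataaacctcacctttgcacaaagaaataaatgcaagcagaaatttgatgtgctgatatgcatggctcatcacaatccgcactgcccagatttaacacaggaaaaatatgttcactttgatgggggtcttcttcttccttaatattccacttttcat
Vmn2r91 (chr17:18084807-18085106, plus strand) and Vmn2r92 (chr17:18151680-18151979, plus strand) are shown because their windows were 98.0% identical, while peaks of both replicates lay within 1 kb of the start of Vmn2r91 and none lay there for Vmn2r92. The peaks at Vmn2r91, with summits 839 and 930 bp inside the start, lay beyond the printed window. Identity was not measured where they lay.
Vmn2r91: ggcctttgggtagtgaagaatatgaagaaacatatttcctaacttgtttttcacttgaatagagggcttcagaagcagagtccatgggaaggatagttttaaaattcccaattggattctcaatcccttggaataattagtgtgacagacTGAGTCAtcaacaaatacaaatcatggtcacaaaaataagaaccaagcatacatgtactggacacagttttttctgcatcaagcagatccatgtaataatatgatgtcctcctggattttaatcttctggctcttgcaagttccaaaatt
Vmn2r92: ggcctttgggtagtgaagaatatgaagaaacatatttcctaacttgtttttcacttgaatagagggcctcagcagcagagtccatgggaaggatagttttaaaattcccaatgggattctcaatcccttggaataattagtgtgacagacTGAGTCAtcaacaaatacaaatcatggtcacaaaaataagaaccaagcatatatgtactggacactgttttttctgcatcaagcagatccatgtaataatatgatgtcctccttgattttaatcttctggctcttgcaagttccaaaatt

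Vmn2r29 (gene ID 76229, chr7:7212996-7278289, 65294 bp) had the highest value at a gene end of all members in both replicates. Fold enrichment, the pileup of fragments at the summit plus 1 over a background term of the same library, is the authors' value throughout. The peak at the outer start reached 22.9 in replicate 1, with a pileup of 154 fragments, and 14.8 in replicate 2, with a pileup of 86 (mean 18.9 ± 5.70, SD, n = 2). The peaks ran from 7277551 to 7278402 and from 7277885 to 7278436, and their summits lay 127 and 60 bp inside the gene. The next highest members at an end had 17.1 (Vmn2r129) in replicate 1 and 5.50 (Vmn2r2) in replicate 2. Among the 13459 genes with an end site in both replicates, Vmn2r29 ranked 451st in replicate 1 and 6th in replicate 2. 

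The gene also carried a second pair of peaks inside its body, away from both starts. Their summits, at 7222697 and 7222690, were 7 bp apart, with fold enrichments of 18.2 and 6.48 and pileups of 68 and 32. The inner start had its nearest summit 6049 bp away in replicate 1 and 24638 bp away in replicate 2. Replicate 1 listed 5 further peaks over the gene, with fold enrichments from 4.76 to 6.61, and replicate 2 listed none. Neither neighbouring gene had an end site in replicate 2, and in replicate 1 their strongest reached 7.14 (Zfp772) and 5.14 (Clcn4). Zfp772, a zinc finger gene, has its start 2998 bp from the downstream end of Vmn2r29, and Clcn4, a chloride and proton exchanger gene, lies 4020 bp beyond the outer start, with its own annotated starts at 7299557 and 7298836 on the far side, where peaks of both replicates lay.

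**Figure D1:**
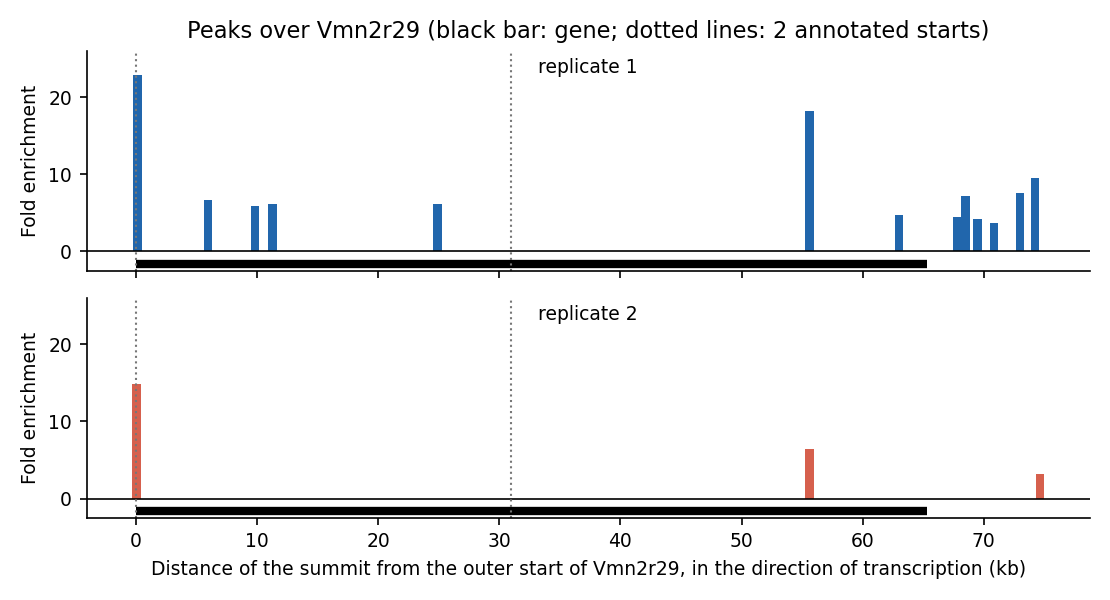
Fold enrichment (vertical axis, the authors' values) of every listed peak over Vmn2r29 and the 10 kb around it, by distance of the summit from the outer start in kb, for replicate 1 (top) and replicate 2 (bottom). Both replicates had peaks at the outer start (22.9 and 14.8) and at 55.6 kb (18.2 and 6.48), and none within 1 kb of the inner start.

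The outer window of Vmn2r29 was unlike that of any other member. It held 62.3% G and C and 23 CG dinucleotides. The other 116 member windows, the inner one of Vmn2r29 included, held 29 to 45.3% G and C (median 38.0%) and 0 to 4 CG (median 1). Over the 21044 start windows of all placed protein-coding genes in the RefSeq table the medians were 56.7% and 13 CG. Identity to the closest other member, without gaps, was 31.3% for the outer window and 95.3% for the inner window, whose closest member was Vmn2r35. At its inner start the gene thus resembled its family in sequence and lacked a peak, and at its outer start it differed on both counts. RefSeq lists a coding and a non-coding transcript for this gene, and the start windows do not say which start belongs to which. In the printed windows, the annotated start falls on the bases atg for the inner start, Vmn2r35, Vmn2r91 and Vmn2r92. It does not at the outer start. Whether annotated starts of members mark transcripts or coding sequence was not checked, here or in the counts at starts below.

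Across the family, few members had peaks at their ends. Of 122 members, 41 (33.6%, 95% exact binomial interval 25.3 to 42.7%) had one in replicate 1, where 86.5% of all placed protein-coding genes did. In replicate 2 there were 11 (9.02%, 4.59 to 15.6%), where 63.6% of all genes had one. In both replicates there were 6 (4.92%, 1.83 to 10.397%), against 62.5% of all genes. Peaks that overlapped between the replicates by at least 50% of both lengths (shared peaks) lay at an end of 3 members (2.46%, 0.510 to 7.02%), against 43.9%. Intervals cover counting error only, members share clusters and sequence, and no test was made between members and other genes, which are not replicates.

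Other receptor families had low shares with an end site in both replicates too. Of 228 Vmn1r genes, the other large family of vomeronasal receptors, 3 had an end site in both replicates (1.32%, 0.272 to 3.797%), and 40 of 1105 olfactory receptor genes did (3.62%, 2.60 to 4.90%). Vmn1r4 had fold enrichments of 15.6 and 3.93, and Olfr270 had 22.8 and 8.05. By contrast, 168 of 322 other genes in the Vmn2r clusters or within 500 kb of them had one (52.2%, 46.6 to 57.7%), with Vmn1r and olfactory receptor genes left out. Pseudogenes of the family (126 placed) had one in 14 cases (11.1%, 6.21 to 17.9%). Their median length was 3218 bp, against 24641 bp for members, and no share over other pseudogenes is given here. Vmn1r and olfactory receptor genes were short too (medians 924 and 951 bp). In replicate 1 the families differed. A peak lay within 1 kb of a start in 36.2% of olfactory receptor genes, 18.5% of Vmn1r genes and 8.62% of members, against 82.2% of all genes. Summits inside the gene were at 25.9, 11.6 and 8.06 per 100 kb, against 26.7 over all genes.

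**Figure D2:**
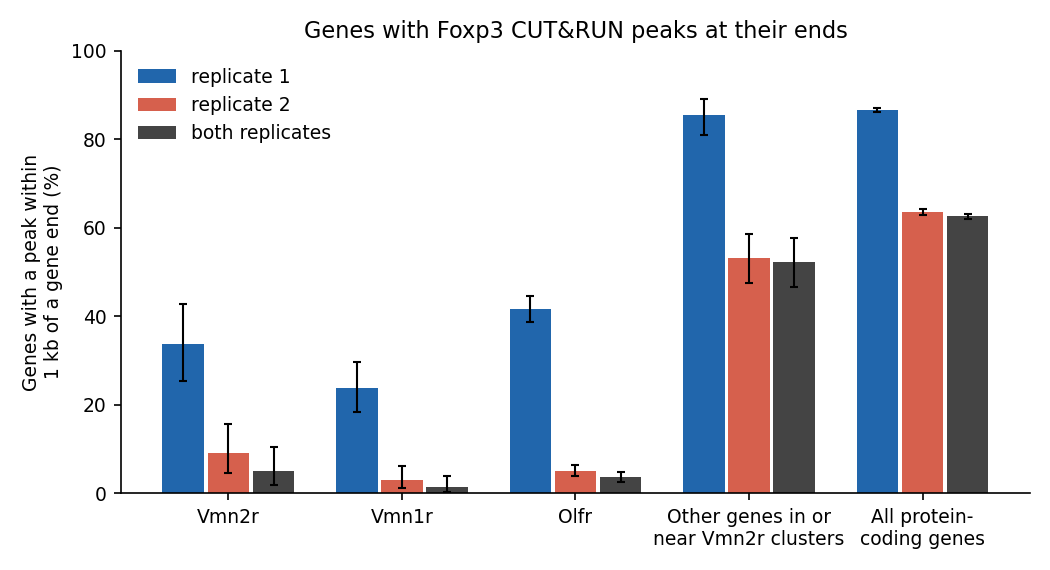
Percent of genes with an end site in replicate 1, replicate 2 and both (bars), with 95% exact binomial intervals, for 122 Vmn2r, 228 Vmn1r and 1105 Olfr genes, 322 other genes in or near Vmn2r clusters, and all 21519 placed protein-coding genes. The 3 receptor families lie at 1.32 to 4.92% for both replicates, and the neighbouring genes at 52.2%.

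Besides Vmn2r29, 5 members had an end site in both replicates. Vmn2r129 (chr4:156331103-156339499) had a shared peak near its downstream end, with fold enrichments of 17.1 and 3.90 and pileups of 87 and 19. Replicate 2 alone had another, 216 bp before its start (5.10). Vmn2r91 (chr17:18085057-18136643) had a shared peak with summits 839 and 930 bp inside its start, at 12.7 and 4.12. A second shared peak lay in its body (13.8 and 4.91). These are 2 of the 3 members with a shared peak at an end, and Vmn2r29 is the third.

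Vmn2r2 had peaks of 9.42 and 5.50 613 and 588 bp outside its upstream end, and the replicate 2 peak lay wholly within the longer replicate 1 peak but covered less than 50% of it. They also lay inside Vmn2r1, which overlaps Vmn2r2. At Vmn2r69 the upstream peaks overlapped (6.08 and 3.34), 922 and 1076 bp before the start. At the downstream end of Vmn2r114 the peaks (3.70 and 3.34) did not overlap. Apart from Vmn2r29, replicate 2 values at an end ran from 3.34 to 5.50 in 10 members. Their median was 3.83, and that of all genes with a peak there was 5.36. In replicate 1 the 40 others ran from 2.91 to 17.1 (median 5.29), against a median of 10.05.

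The remaining members with a peak at an end had it in 1 replicate. In replicate 1 alone there were 35 (28.7%), led by Vmn2r60 (12.4) and Vmn2r61 (11.4), both at the downstream end. In replicate 2 alone there were 5 (4.10%), Vmn2r11 (4.91), Vmn2r87 (3.93), Vmn2r63 (3.73), Vmn2r112 (3.53) and Vmn2r56 (3.34). Of all genes, 86.5% had an end site in replicate 1, 63.6% in replicate 2 and 62.5% in both. An end site in replicate 1 alone was thus common among other genes too. No end site was listed in either replicate for 76 members, and 29 (23.8%, 16.5 to 32.3%) had no peak at an end or in the body in either replicate, against 6.32% of all genes. Vmn2r10 and Vmn2r101 were among these.

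**Figure D3:**
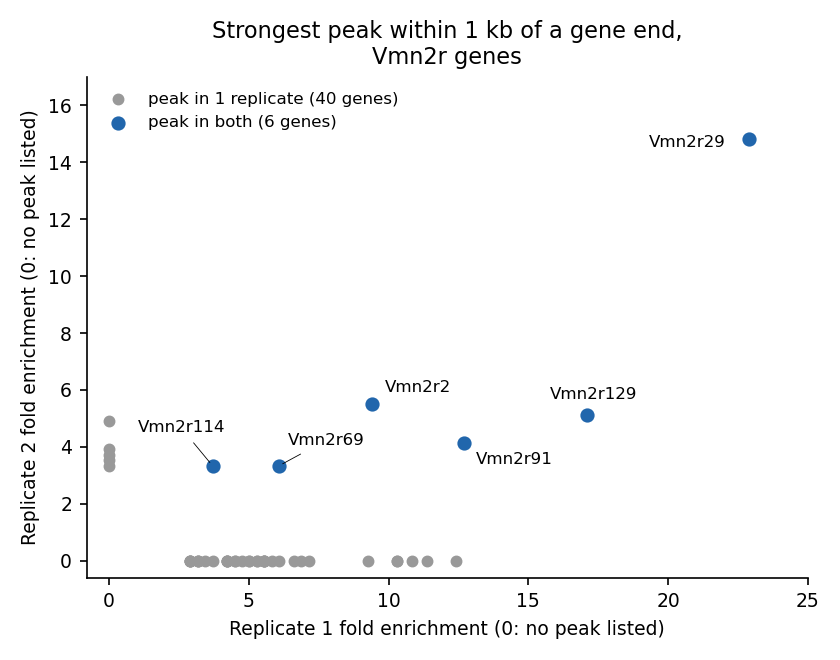
Fold enrichment of the strongest end site in replicate 1 (horizontal) and replicate 2 (vertical) for the 46 Vmn2r genes with such a peak in either replicate, with 0 for no listed peak. Vmn2r29 (22.9 and 14.8) stands apart, the 5 other members with peaks in both are labelled, and 40 members lie on an axis.

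Annotated starts and downstream ends gave different counts. At the start itself (116 members with a window) 10 had a peak within 1 kb in replicate 1 (8.62%, 4.21 to 15.3%), against 82.2% of 17273 genes, 6 in replicate 2 (5.17%, 1.92 to 10.9%), against 62.4%, and 3 in both (2.59%, 0.537 to 7.37%), against 61.1%. Those 3 were Vmn2r29, Vmn2r69 and Vmn2r91. At the upstream annotated end the count was 12 in replicate 1, 6 in replicate 2 and 4 in both, against 79.2%, 58.1% and 56.6% of all genes. At the downstream end it was 35 in replicate 1 (30.2%, 21.998 to 39.4%), against 54.0% of all genes. It was 6 in replicate 2 (5.17%, 1.92 to 10.9%), against 15.9%, and 2 in both (1.72%, 0.209 to 6.09%), against 13.4%.

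The downstream peaks of replicate 1 lay just inside the gene. In the last 1 kb inside, 32 of 116 members (27.6%) had a summit in replicate 1, near the 33.6% of all genes. In the first 1 kb inside, 5 members (4.31%) had one, against 62.7% of all genes. In the next 1 kb inward from the downstream end the count was 12 (10.34%, against 32.2%). In replicate 2 the last 1 kb held a summit in 3 members (2.59%, against 8.35%), and the first 1 kb in 3 (2.59%, against 44.2%). The higher count at the downstream than at the upstream end was thus seen in replicate 1 (32 against 5) and not in replicate 2 (3 against 3), and the difference between the replicates was not tested.

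Over the whole gene, summits were sparse. Members measured 8.40 to 143 kb (median 24.6 kb) and held 262 summits in replicate 1, or 8.06 per 100 kb (95% Poisson interval 7.11 to 9.10), where all genes held 26.7. In replicate 2 there were 40, or 1.23 per 100 kb (0.879 to 1.68), where all genes held 4.95. From the first to the last of 5 equal parts of the gene, replicate 1 had 6.27, 6.75, 6.43, 7.87 and 14.0 summits per 100 kb. Over all genes these parts had 27.7, 24.2, 25.1, 26.6 and 29.2 in replicate 1. Around the members, replicate 1 had 9.48 from 10 to 1 kb before the gene and 5.17 in the 1 kb before. It had 4.31 in the 1 kb after and 12.5 from 1 to 10 kb after, so the last part was near the latter. In replicate 2 the 5 parts of the members had 1.12, 1.12, 1.29, 1.45 and 1.29. The most dense by gene in replicate 1 were Vmn2r129 (23.8), Vmn2r13 (22.2) and Vmn2r89 (21.4, from 2 summits), and 32 members, Vmn2r10, Vmn2r100 and Vmn2r101 among them, had no summit there. The 87 summits of replicate 1 in the last of these parts came from 59 members, with at most 4 in one.

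**Figure D4:**
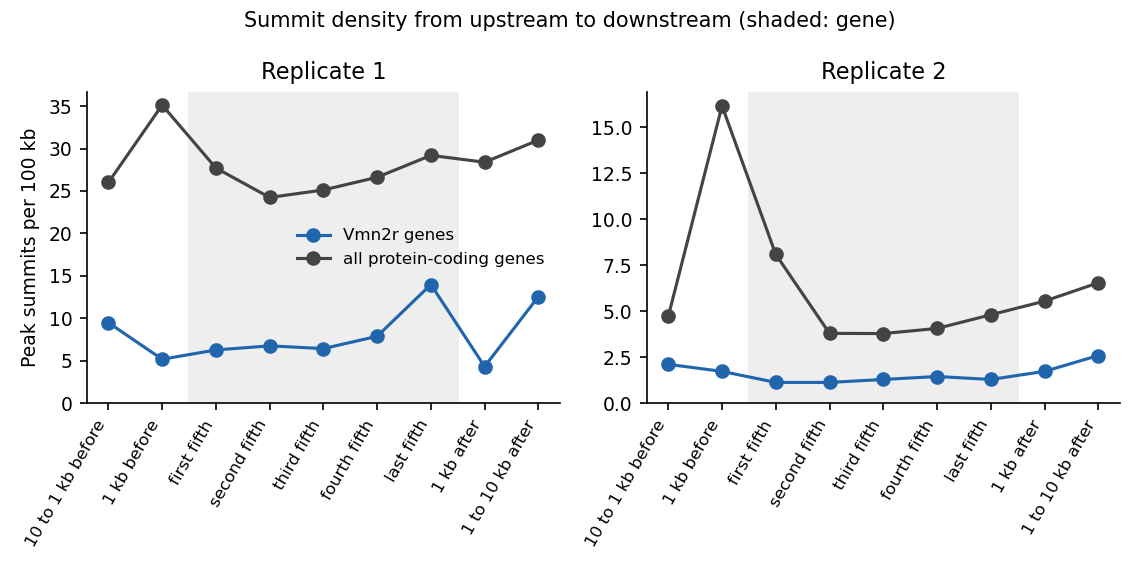
Peak summits per 100 kb (vertical axes, scaled separately) before, within (shaded, in 5 equal parts) and after genes in the direction of transcription, for 116 Vmn2r genes and 17273 protein-coding genes with a known strand. In replicate 1 the members rise to 14.0 in the last of these, in replicate 2 they stay from 1.12 to 1.45 within the gene, and all genes have 35.1 and 16.2 in the 1 kb before the start.

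A peak touched the body of 90 members in replicate 1 (73.8%, against 91.8% of all genes), 29 in replicate 2 (23.8%, against 75.9%) and 27 in both (22.1%, 15.1 to 30.5%, against 75.5%). The 2 with a body peak in replicate 2 and none in replicate 1 were Vmn2r65 (3.14) and Vmn2r100 (3.34 and 3.53). Shared peaks touched 12 members (9.84%, 5.19 to 16.6%, against 56.0%), and there were 14 of them. Besides those of Vmn2r29, Vmn2r91 and Vmn2r129, they lay in Vmn2r11 (6.88 and 6.09), Vmn2r13 (11.4 and 3.53), Vmn2r27 (9.21 and 5.50), Vmn2r53 (5.03 and 5.10), Vmn2r55 (6.35 and 4.52), Vmn2r56 (12.2 and 5.10), Vmn2r57 (13.5 and 5.69), Vmn2r59 (12.7 and 4.12) and Vmn2r62 (8.20 and 5.30). Their summits were 26 to 246 bp apart. Replicate 1 was the higher in all but Vmn2r53.

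Where members did have peaks, these repeated about as often as peaks elsewhere. Of 44 replicate 2 peaks at members, 14 were shared (31.8%), against 32.9% of all replicate 2 peaks, and 21 overlapped a replicate 1 peak by at least 1 bp (47.7%, against 53.8%). In replicate 1, 14 of 266 were shared (5.26%, against 5.62%). The members' peaks had a median fold enrichment of 4.76 (replicate 1) and 4.12 (replicate 2), where all peaks had 4.92 and 3.99. A few replicate 1 peaks lay far above this median. Vmn2r13 had one of 24.1 (pileup 90), Vmn2r1 one of 18.7 (pileup 142) and Vmn2r7 one of 16.9 (pileup 63). Replicate 2 had no overlapping peak at any of these. Replicate 1 peaks of like strength at Vmn2r29 (22.9 and 18.2) and Vmn2r129 (17.1) did overlap a replicate 2 peak. Of the 266 replicate 1 peaks at members, 20 did (7.52%), against 9.49% of all replicate 1 peaks.

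The background term, the fragments expected over a site from the library itself, was at its commonest value (3.78 fragments in replicate 1 and 5.09 in replicate 2) for 97.4% and 95.5% of the members' peaks. Over all peaks on the same chromosomes it was so for 55.7% in either replicate. At the outer start of Vmn2r29 it was 6.77 and 5.87 fragments. 

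Members fall into 18 clusters when genes up to 1 Mb apart are joined, of which 12 hold several members and 6 hold 1. Peak summits were less dense within the cluster than in the 500 kb on both sides in 16 of 18 clusters for replicate 1 and in 15 of 18 for replicate 2. All clusters together held 9.23 summits per 100 kb in replicate 1 and 1.61 in replicate 2, and the flanks averaged 18.3 and 4.01. The cluster around Vmn2r29 (24 members, chr7:7212996-10176286) had 7.26 and 0.641. In it 13 members had a peak at an end in replicate 1 and 1, Vmn2r29, in replicate 2. The cluster on chromosome 17 from 17703941 to 20596259 (22 members) had 8.47 and 1.52, with 7 members and 1 member. One cluster of 4 members on chromosome 10 (130385800 to 130497379) went the other way, with 14.3 against 6.5 in its flanks in replicate 1 and 4.48 against 1.00 in replicate 2. The single-gene span of Vmn2r129 also lay above its flanks, and it held 2 and 1 summits. The third exception in replicate 2 was a cluster of 4 members on chromosome 7 (12581470 to 12733320), with 5.27 against 4.90.

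Peaks were less common at starts with few CG in the genome at large, and all member starts but 1 were of that kind. Among all protein-coding starts, a peak within 1 kb was found in both replicates at 6.82% of those with 0 or 1 CG in the window, 15.3% with 2 to 4, 37.6% with 5 to 9, 74.9% with 10 to 19 and 94.7% with 20 or more. Of 74 member windows with 0 or 1 CG, 5 had a peak in replicate 1, against 39.8% of all such starts, and 2 in replicate 2, against 8.49%. Of 42 with 2 to 4 CG, 4 had one in replicate 1, against 56.6%, and 3 in replicate 2, against 18.0%. The outer start of Vmn2r29, the single member window above 4 CG, fell in the highest class. The part of CG content in the members' counts was not tested.

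**Figure D5:**
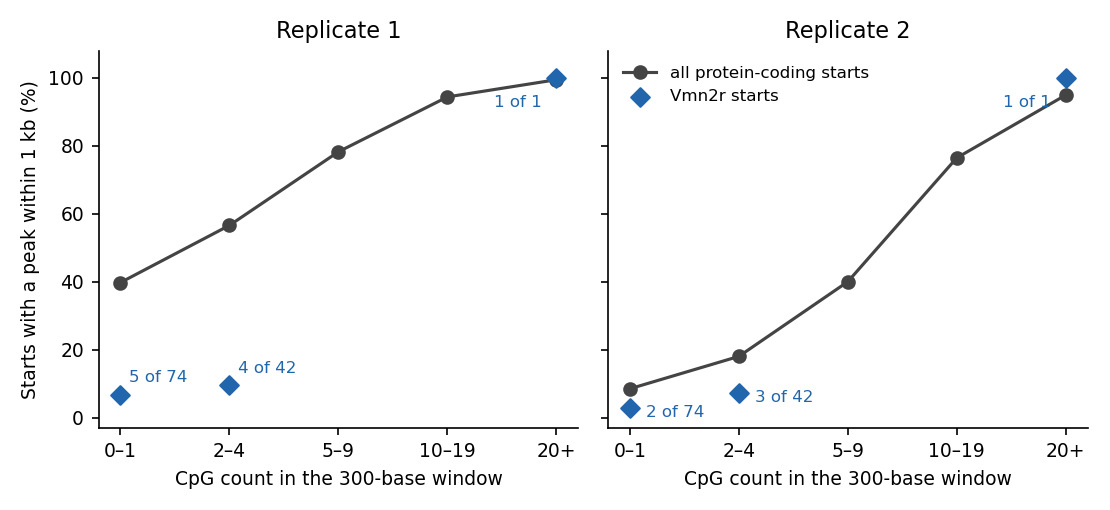
Percent of annotated starts with a peak within 1 kb, by the number of CpG dinucleotides in the 300-base window, in replicate 1 (left) and replicate 2 (right), for all protein-coding starts (line) and Vmn2r starts (diamonds, with counts). Member starts with 0 to 4 CpG lie below all starts of the same class, and the outer start of Vmn2r29 lies in the class of 20 or more.

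Searching both strands, the forkhead word TGTTTAC was in 1 member window of 117 (0.855%), against 3.03% of all windows. The variant TGTTTGC was in 12 (10.26%), against 4.62%. Most of these 12 lay in 1 cluster on chromosome 7 (84940169 to 87037968). No member start with either forkhead word had a peak within 1 kb in either replicate. The AP-1 word TGACTCA was in 31 member windows (26.5%), against 4.69% of all windows. In 28 of these 31 it read TGAGTCA in the direction of the gene, as in the windows printed above. Its first base lay from −123 to −35 relative to the annotated start, with a median of −107. By cluster it was in 15 of 22 members with a window around Vmn2r29 and in 11 of 22 on chromosome 17. The outer window of Vmn2r29 held none of the 3 words. Of the 31 starts with the AP-1 word, 2 had a peak within 1 kb in replicate 1 (Vmn2r39 and Vmn2r91). In replicate 2 the count was 2 (Vmn2r56 and Vmn2r91). Of all 116 members with a window, 10 and 6 had one, against 82.2% and 62.4% of 17273 genes. The AP-1 word was also in 22 of 205 Vmn1r windows (10.7%) and 46 of 944 olfactory receptor windows (4.87%).

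Near-identical copies can share reads, and how reads that match several places were treated was not given in the sources used here. The closest other member had a median identity of 77.3% over the window, and 35 of 117 windows had one at 95% or more. Of 43 such pairs, 29 had no peak within 1 kb of either start in replicate 1. Another 13 had one at a single start, and 1, Vmn2r114 with Vmn2r115, had one at both. Members recur across pairs, so the 13 are not separate cases, and several rest on the peak of Vmn2r114 or Vmn2r115. In replicate 2 there were 42 pairs with none and 1, Vmn2r91 with Vmn2r92, with one. Windows with such a copy had a peak within 1 kb of the start in 6 of 35 cases in replicate 1, and the others in 4 of 82. In replicate 2 the counts were 1 of 35 and 5 of 82. Counted by gene rather than by window, 82.2% of all 17273 genes had one in replicate 1 and 62.4% in replicate 2. Identity was measured over the window alone, while peaks were counted up to 1 kb from the start. Of the 6 cases in replicate 1, Vmn2r115 and Vmn2r22 had the summit inside the window. At Vmn2r114, Vmn2r55, Vmn2r91 and Vmn2r39 it lay outside the window, where identity was not measured. These counts therefore cannot show whether near-identical sequence at a peak shares reads. The pair counts cover starts only, not downstream ends or gene bodies. In their bodies Vmn2r40 and Vmn2r41 (windows 99.7% identical) had replicate 1 peaks with the same values (3.97, pileup 14). These lay 21143 and 21134 bp after the start. A pileup of 14 over the commonest background term gives 3.97 at any site. Pairs with windows 100% identical differed in their number of body peaks in replicate 1. Vmn2r31 and Vmn2r33 had 0 and 3, and Vmn2r32 and Vmn2r49 had 0 and 1. Vmn2r34 and Vmn2r45 had 1 and 2, as did Vmn2r62 and Vmn2r126. The part of read sharing in the counts at starts, ends and bodies was not tested.

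Genes listed as linked to vomeronasal neurons, or as relatives of these receptors, did not share the low counts of the family, with 1 list excepted. Whether each listed gene acts with Vmn2r receptors was not checked. Among 17 genes listed for vomeronasal signalling 12 had an end site in both replicates (70.6%, 44.0 to 89.7%), beside the 62.5% of all genes. Gnao1 had 7.97 and 5.57, Ano2, a calcium-activated chloride channel gene, 18.8 and 6.48, and Cnga4, a cyclic nucleotide-gated channel subunit gene, 16.8 and 7.62. Trpc2 had 5.29 and 3.27, and Omp, the olfactory marker protein gene, had a peak in replicate 1 alone (3.94). Among 16 regulators of vomeronasal neurons 13 had one (81.3%, 54.4 to 96.0%), with Ebf1 at 20.5 and 5.02, Lhx2 at 10.12 and 6.51 and Lbr, the lamin B receptor gene, at 17.3 and 5.25. Bcl11b, a zinc finger factor of basal vomeronasal neurons, had 9.39 and 3.91. Among 22 class C receptor relatives 17 had one (77.3%, 54.6 to 92.2%), with Grm6, a glutamate receptor gene, at 16.8 and 5.87 and Tas1r1, a taste receptor gene, at 13.1 and 6.41.

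The exception was the list of H2-Mv genes, non-classical class I molecules expressed with Vmn2r receptors, and B2m, which encodes their partner chain. None of these 10 genes had an end site in both replicates (0 of 10, upper bound 30.8%), beside 62.5% of all genes, and 6 had one in replicate 1, beside 86.5%. B2m had 14.3 in replicate 1, and the H2-M genes with a peak had 3.44 to 5.55.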

How the data were processed

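Per the file headers, the authors called peaks with MACS 2.1.1.20160309 on each Foxp3 library separately, in paired-end mode, at a q-value cutoff of 0.01, with no control library and all duplicates kept. Per the submitters' processing notes the build was mm10 and CASAVA 1.4 was used. The aligner was not given in the sources used here. Pileup, as deposited, is a signal counted in fragments at the summit without scaling. Fold enrichment, as deposited, is a ratio of pileup plus 1 to a background term of the same library, genome-wide or over 10000 bp. Significance was deposited by the authors as −log10 of p- and q-values. The smallest listed pileup was 10 fragments in replicate 1 and 13 in replicate 2, so weaker sites could not be seen.

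Gene ends came from the RefSeq table of GRCm38.p6, and starts, strands and windows from RefSeq start windows of that build. Genes lying before the first peak of their chromosome (108) were left out. A site was any peak within 1000 bp of a gene end. Overlap code was tested on simulated data (Python 3.11.15, SciPy for intervals). The named genes were Vmn2r29, members with an end site or shared body peak in both replicates, those with the highest fold at an end or the most and fewest summits in replicate 1, and up to 4 genes of each other list with a site in both replicates. The neighbours of Vmn2r29 were named too. Other genes in the text, such as Vmn2r1, Vmn2r7, Vmn2r39, Vmn2r65, Trpc2, Omp, Bcl11b, B2m and the cell type markers singled out, were chosen after their values were seen. The members and lists were chosen with earlier results of these data known. No control values entered, so no test between conditions was possible. Alternatives are given in the closing section.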

Additional observations from a re-analysis of the deposited data

How the results depend on the processing

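No paired analysis was possible because the 2 Foxp3 libraries form a single group. The fold enrichment of Vmn2r29 was the same with windows of 500 bp and 5 kb and by summit. With both replicates required, 6 members had a site at an end. With 1 replicate left out, only the single counts remain. These were 41 in replicate 1 and 11 in replicate 2, against 86.5% and 63.6% of all genes. With a window of 500 bp the counts were 2 in both replicates and 7 in replicate 2, against 55.5% and 57.3% of all genes. With 5 kb they were 29 in both, 106 in replicate 1 and 29 in replicate 2, against 79.3%, 96.7% and 79.6% of all genes. With the gene body and 1 kb on both sides they were 29, 91 and 31, against 77.8%, 93.3% and 78.2%. At the start alone they were 3, 10 and 6 of 116 members. A fold enrichment of at least 5 gave 3, 24 and 3, against 36.8%, 76.7% and 37.5%, with 8 shared peaks in bodies and 4.06 and 0.431 summits per 100 kb. A −log10 q of at least 5 gave 6 in replicate 2, against 58.7%, and 5.66 and 0.769 summits per 100 kb. Summit densities and shared peaks over all genes at these stricter thresholds are not given here, so the members' values have nothing beside them. Adding pseudogenes gave 20, 88 and 26 of 248, with no share over other pseudogenes to set beside them. The strongest replicate 1 peaks, as many as replicate 2 holds, gave 10 members in replicate 1 by fold, against 57.1%, and 10 by −log10 q, against 62.5%. Leaving out Vmn2r29, counting summits and adding Vmn2r122 (chosen after seeing the data) kept the counts within 1.5 times. With 2 libraries, and no IgG values used, dependence on the antibody was not tested.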
